A study of Mus musculus with 45 samples.

Results

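The hormone receptors and lineage regulators of the mammary luminal epithelium were followed across mouse mammary tumour cell lines. The 9 genes were chosen by name for their roles in luminal cells, with earlier results of these data known. They were *Esr1*, *Pgr*, *Prlr*, *Gata3*, *Foxa1*, *Elf5*, *Kit*, *Cited1* and *Sox9*, of 54838 genes counted. RNA came from 15 *PyMT*+ cell lines in culture, all derived from mammary tumours driven by polyomavirus middle T antigen, a transgene that the MMTV promoter expresses in mammary epithelium. YEJG and YEJH are parental lines from primary mammary tumours, and the other lines came from tumours that grew after transplantation into the fat pad or from lungs after such tumours had been resected. From YEJG came 1 line of a fat-pad tumour (YEJG-FP) and 2 lines of whole lung (YEJG-M1 and YEJG-M2), and from YEJH came 5 fat-pad lines (YEJH-FP1 to YEJH-FP5) and 5 lung lines (YEJH-M1 to YEJH-M5, with YEJH-M3 labelled as lung metastases), which leaves YEJG fat-pad lines without replication. Each line was sequenced in 3 technical repeats, so that the line, and not the library, was the unit of replication.

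The luminal layer of the mammary gland holds hormone-sensing cells, which carry oestrogen, progesterone and prolactin receptors, and hormone receptor-negative progenitors, which give rise to milk-secreting alveolar cells. GATA3 is required for luminal differentiation, FOXA1 is a pioneer factor that opens chromatin for the oestrogen receptor, ELF5 specifies the alveolar fate downstream of prolactin, and KIT marks luminal progenitors. In tumours driven by middle T antigen, loss of hormone receptors is well known to accompany progression.

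Libraries held 9723860 to 16943900 reads assigned to genes. The library of YEJH-M3 repeat 2 stood apart, with 15.2% of reads not aligned and 13.3% outside annotated genes, against 2.69% to 6.97% and 5.52% to 8.30% in the other 44 libraries, and results that rest on it are also given without it. YEJG-M1 repeat 1, whose library name points to a different line, was most alike YEJG-M1 repeat 3 (r = 0.994 across genes, against at most 0.963 with a library of YEJH-M1). The luminal keratins *Krt8* and *Krt18* lay between 1356 and 3523 and between 1034 and 2703 TMM-scaled CPM (counts-per-million of reads on genes, with library sizes scaled by the trimmed mean of M-values) in every line, and the epithelial adhesion gene *Epcam* between 127 and 742.3 CPM. The basal markers *Krt5* and *Trp63* stayed at or below 0.117 and 0.427 CPM, whereas the basal keratin *Krt14* lay between 130.4 and 1366 CPM. Summed levels were at most 9.54 CPM for 8 leukocyte genes, 1.28 CPM for 7 lung epithelial genes and 0.789 CPM for 5 endothelial genes. The 8 fibroblast and fat genes summed to 15.4 to 57.03 CPM in the YEJG lung lines and to at most 6.07 CPM in the other lines. *Itgam*, *Sftpc* and *Nkx2-1* had no reads. The leukocyte genes *Csf1r*, *S100a8*, *Cd68* and *Ptprc* were read in all 15 lines and reached 4.84, 5.11, 2.66 and 0.247 CPM.

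The 9 genes fell into a set with steady expression and a set close to the limit of detection. *Sox9*, *Gata3* and *Esr1* were read in every line, *Prlr* and *Foxa1* were low and uneven between lines, and *Cited1*, *Elf5*, *Kit* and *Pgr* gave between 1 and 26 reads in all 45 libraries together. Per kilobase of exon, the mean levels over 15 lines were 13.7 ± 3.91 CPM (SD) for *Sox9*, 4.43 ± 0.68 for *Gata3* and 0.454 ± 0.0749 for *Esr1*. These 3 genes kept the same order in every line without overlap, since the lowest *Sox9* level per kilobase was 6.45 CPM and the highest *Gata3* level 5.79, and the lowest *Gata3* level was 3.46 and the highest *Esr1* level 0.608. *Foxa1* (0.0442 ± 0.0637 CPM per kilobase), *Prlr* (0.0262 ± 0.0238) and *Cited1* (0.0215 ± 0.0303) could not be ordered, as the differences between them were smaller than their SD between lines. On the same scale *Sox9* exceeded between 89.7% and 96.5% of the genes with an annotated length in each line, *Gata3* between 85.5% and 88.9%, and *Esr1* between 74.8% and 77.2%. These shares include genes without reads, and the single read of *Pgr* in YEJH-M5 already exceeded 57.4%. In bulk RNA, fewer cells that express a gene and less RNA per cell cannot be told apart.

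**Figure D1:**
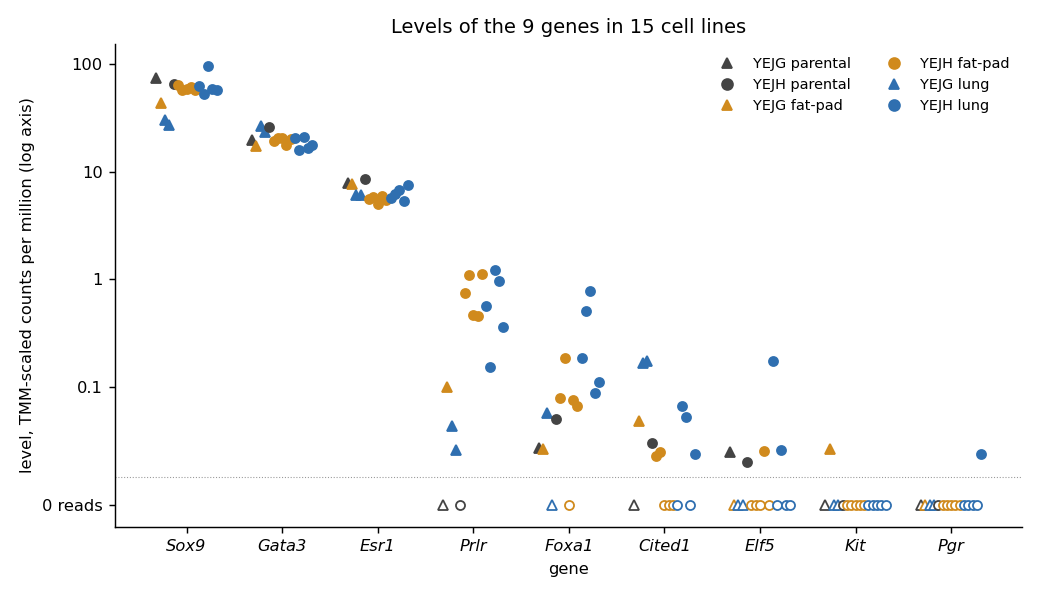
Level of each of the 9 genes (TMM-scaled CPM, log axis) in each of the 15 lines, as the mean of 3 technical repeats. Open symbols are lines without a read. *Sox9*, *Gata3* and *Esr1* lay between 4.95 and 95.8 CPM in every line, and all other values were at or below 1.21 CPM.

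Promoter sequences were at hand for 8 of the 9 genes in the RefSeq promoter table (GRCm38.p6), with 15 start sites. *Sox9* had no entry. The 250 bases before the start are shown for *Gata3*, the abundant regulator, and for *Foxa1* and *Pgr*, which were almost unread, because each has a single start in the table. Capitals mark CG dinucleotides, the sites at which promoter DNA can be methylated. *Gata3* lies at chr2:9878601-9878850 (minus strand), *Foxa1* at chr12:57546112-57546361 (minus strand) and *Pgr* at chr9:8899583-8899832 (plus strand).
Gata3: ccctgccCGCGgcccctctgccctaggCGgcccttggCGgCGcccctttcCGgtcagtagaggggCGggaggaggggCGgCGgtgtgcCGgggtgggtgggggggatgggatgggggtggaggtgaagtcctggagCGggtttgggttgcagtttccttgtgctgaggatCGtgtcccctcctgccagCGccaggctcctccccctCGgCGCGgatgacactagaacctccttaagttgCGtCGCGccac
Foxa1: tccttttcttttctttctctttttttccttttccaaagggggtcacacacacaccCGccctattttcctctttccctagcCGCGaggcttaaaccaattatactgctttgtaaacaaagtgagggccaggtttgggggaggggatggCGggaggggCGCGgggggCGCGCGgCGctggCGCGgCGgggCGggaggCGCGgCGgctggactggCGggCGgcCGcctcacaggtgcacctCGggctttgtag
Pgr: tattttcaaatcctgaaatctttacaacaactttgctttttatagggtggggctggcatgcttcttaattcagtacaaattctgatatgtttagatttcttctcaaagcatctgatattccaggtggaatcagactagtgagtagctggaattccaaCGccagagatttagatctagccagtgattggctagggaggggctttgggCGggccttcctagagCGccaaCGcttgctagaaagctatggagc
The *Gata3* and *Foxa1* windows held 19 and 21 CG dinucleotides, more than 80.3% and 83.7% of the 32851 promoters of the same length, and the *Pgr* window held 4, more than 37.8%. *Kit*, which had 1 read in all, held 17 and 18 CG dinucleotides at its starts, and *Esr1*, which was read in every line, held 4 and 7, against a median of 6 over all promoters. The GATA motif AGATAA was searched on both strands and was in none of the 15 windows (9.99% of all promoters hold it), and the forkhead motif TGTTTAC was in the *Foxa1* window and in 1 of 3 *Prlr* windows (3.17% of all promoters). The consensus palindromic oestrogen response element was in none of the 15 windows and in 0.0639% of all promoters.

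*Esr1*, the gene of oestrogen receptor alpha (ENSMUSG00000019768, GRCm39 chr10:4561593-4955626, plus strand), was low but present throughout. The parental lines were the highest, with 7.85 CPM in YEJG and 8.49 CPM in YEJH. The lines from YEJG held 7.60 CPM in YEJG-FP, 6.07 in YEJG-M1 and 6.03 in YEJG-M2. The YEJH fat-pad lines FP1 to FP5 held 5.53, 5.82, 4.95, 5.91 and 5.45 CPM, and the YEJH lung lines M1 to M5 held 5.63, 6.20, 6.68, 5.36 and 7.43 CPM. All 13 derived lines had means below both parental lines, while lung and fat-pad lines overlapped. The 95% exact Poisson intervals of YEJG-FP (6.78 to 8.495 CPM) and YEJH-M5 (6.65 to 8.27 CPM) overlapped that of parental YEJG (6.99 to 8.80 CPM). The share of all genes with such an order of lines was not counted. The spread between YEJH lines of a site (SD 0.645 CPM) was little more than the error of a line's own mean from its repeats (0.496 CPM).

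Known targets of the oestrogen receptor differed widely in level. *Pgr*, the progesterone receptor gene and itself such a target (ENSMUSG00000031870, chr9:8899830-8968612, plus strand), had 1 read, in YEJH-M5, of 634793219 reads on genes. *Greb1*, another classical target, lay between 0 and 0.742 CPM, with its highest value in parental YEJG. *Areg*, the amphiregulin gene that oestrogen induces in the mammary gland, was abundant at 120.1 to 293.6 CPM. *Pgr* without reads allows up to 0.0653 to 0.0784 CPM per line (3 counts), so that absence below that level is not known. Such floors and the counting intervals cover counting error only.

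*Prlr*, the prolactin receptor gene (ENSMUSG00000005268, chr15:10177258-10349959, plus strand), separated the YEJH-derived lines from the other 5. Neither parental line had a read, which allows up to 0.0779 CPM in YEJG and 0.0729 CPM in YEJH. The lines from YEJG had 4 reads in YEJG-FP, 2 in YEJG-M1 and 1 in YEJG-M2. The YEJH fat-pad lines FP1 to FP5 held 0.748, 1.09, 0.467, 0.459 and 1.11 CPM, and the YEJH lung lines M1 to M5 held 0.565, 0.154, 1.21, 0.953 and 0.359 CPM. Each of the 10 YEJH-derived lines was above each of the other 5 lines, although the lowest, YEJH-M2, rested on 7 reads and its 95% exact Poisson interval (0.0619 to 0.317 CPM) overlapped that of YEJG-FP (0.0273 to 0.256 CPM). The technical error of a line mean was 0.0957 CPM, against an SD of 0.379 CPM between YEJH lines of a site.

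*Gata3* (ENSMUSG00000015619, chr2:9861889-9894845, minus strand) was evenly expressed. YEJG and YEJH held 19.7 and 25.7 CPM. YEJG-FP held 17.3 CPM, YEJG-M1 26.3 and YEJG-M2 23.4. The YEJH fat-pad lines FP1 to FP5 held 19.3, 20.6, 20.7, 17.7 and 20.1 CPM, and the lung lines M1 to M5 held 20.6, 15.7, 21.2, 16.7 and 17.7 CPM. The highest and the lowest derived lines differed by less than a factor of 2. Both YEJG lung lines lay above all other derived lines, and the share of genes with that order was not counted.

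*Sox9* (ENSMUSG00000000567, chr11:112673009-112678586, plus strand), a transcription factor of luminal progenitors and mammary stem cells, was the most abundant member. YEJG and YEJH held 73.7 and 64.5 CPM, and YEJG-FP, YEJG-M1 and YEJG-M2 held 43.8, 30.2 and 26.95 CPM. The YEJH fat-pad lines FP1 to FP5 held 63.4, 57.1, 57.97, 60.9 and 56.99 CPM, and the lung lines M1 to M5 held 61.7, 52.03, 95.8, 58.3 and 56.8 CPM. The 3 YEJG-derived lines were below every other line, and how many of all genes share this order was not counted. The high value of YEJH-M3 came from repeat 2 alone, with 169.6 CPM against 57.8 and 59.97 CPM in the other repeats of that line, and without this library YEJH-M3 held 58.9 CPM.

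**Figure D2:**
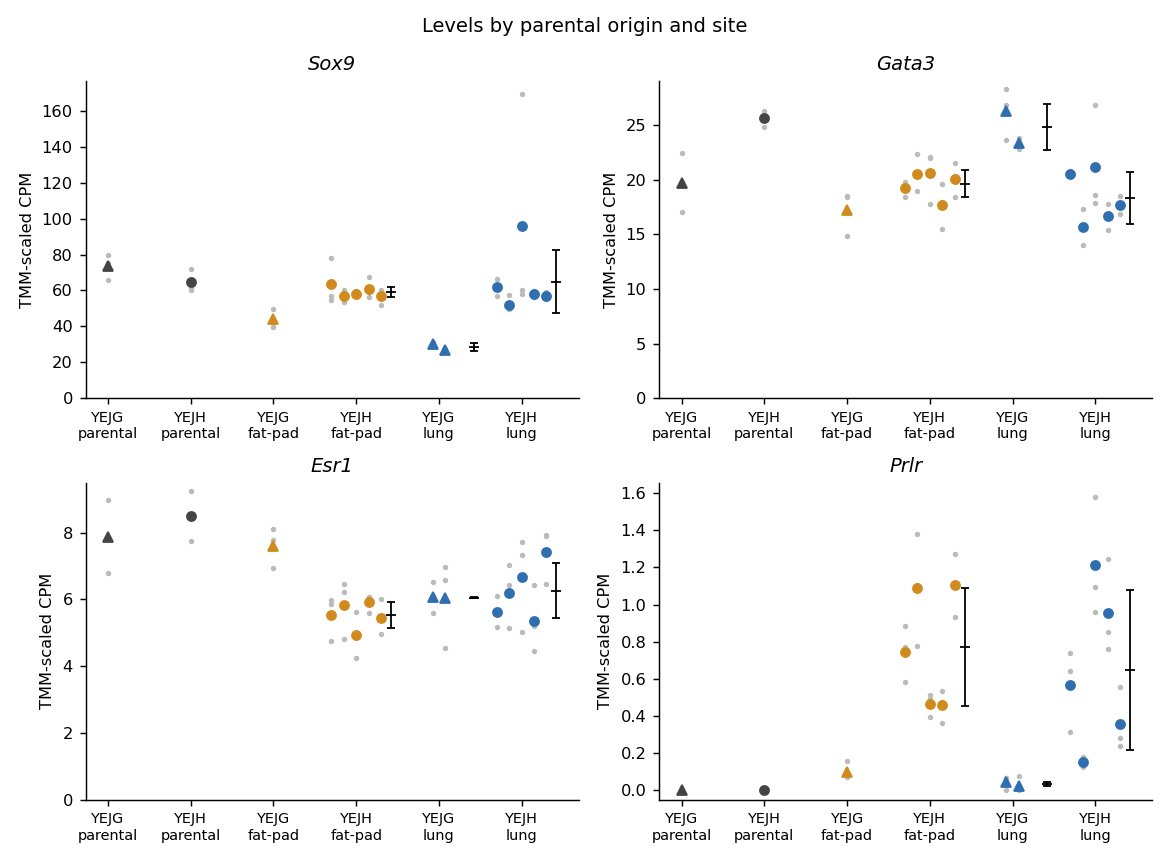
Levels of *Sox9*, *Gata3*, *Esr1* and *Prlr* (TMM-scaled CPM, linear axes) by parental origin and site. Coloured symbols are lines, grey points are single libraries, and black bars are the mean ± SD over lines where a group has more than 1 line. *Sox9* was lowest in the YEJG-derived lines (26.95 to 43.8 CPM), and *Prlr* reached 0.154 CPM or more only in YEJH-derived lines.

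*Foxa1* (ENSMUSG00000035451, chr12:57587414-57593702, minus strand) was nearly unread in 13 lines. YEJH-M3 had 32 reads (0.782 CPM, 95% exact Poisson interval 0.535 to 1.10) and YEJH-M2 had 22 reads (0.501 CPM, 0.314 to 0.759), spread over all 3 repeats in both lines. The next lines, YEJH-FP2 and YEJH-M1, had 8 and 7 reads, parental YEJG and YEJH had 1 and 2 reads, and YEJH-FP3 and YEJG-M2 had none. The intervals of YEJH-M3 and YEJH-M2 overlapped each other, and that of YEJH-M3 lay above those of all 13 other lines.

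*Elf5*, *Kit* and *Cited1* were at the limit of detection. *Elf5* (ENSMUSG00000027186, chr2:103242033-103281334, plus strand) had 11 reads in all, of which 7 were in YEJH-M1, in every one of its 3 repeats (1, 3 and 3 reads). *Kit*, the stem cell factor receptor gene (ENSMUSG00000005672, chr5:75735576-75817404, plus strand), had 1 read, in YEJG-FP. *Cited1*, a coactivator of the oestrogen receptor (ENSMUSG00000051159, chrX:101290985-101295803, minus strand), had 26 reads, of which 8 were in YEJG-M2 and 7 in YEJG-M1. No other line exceeded 3 reads of *Cited1*.

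**Figure D3:**
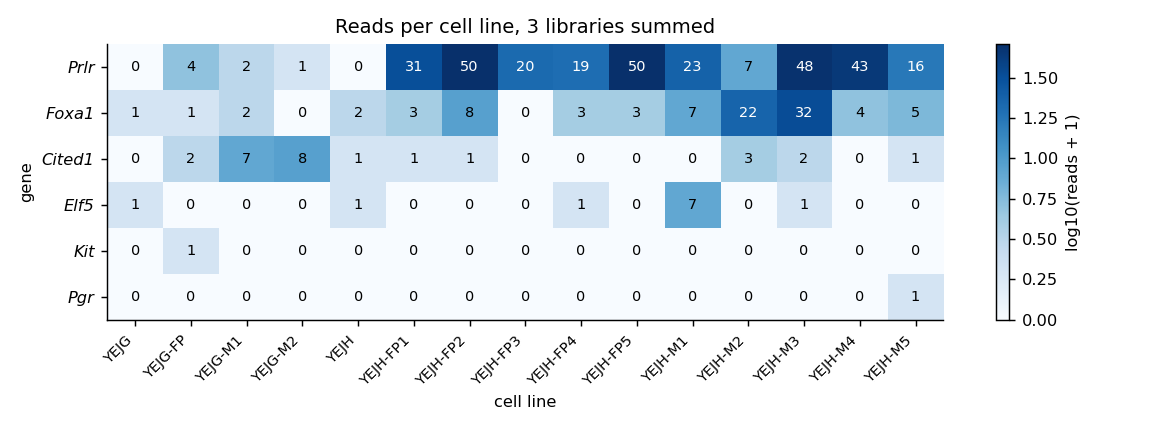
Reads per line (numbers, 3 libraries summed) of the 6 genes with low counts in the 15 lines, with colour for log10(reads + 1). *Prlr* had 7 to 50 reads in each YEJH-derived line and 0 to 4 elsewhere, and *Kit* and *Pgr* had 1 read each.

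Cultured lines taken from lung were compared with cultured lines taken from fat-pad tumours, 7 against 6. No member passed the test. Of the 9 genes, 4 passed the expression filter, and 0 of 4 were called (edgeR's quasi-likelihood test on counts summed per line, adjusted p under 0.05), against 0% of 15056 genes tested. None of the 4 had an unadjusted p under 0.05, as 784 of all genes did, and DESeq2 called 0 of the 4 as well. *Esr1* was 6.20 ± 0.685 CPM (SD, n = 7 lines) in lung and 5.88 ± 0.911 (n = 6 lines) in fat-pad lines, which is 0.07 on the log2 scale (standard error 0.11, adjusted p = 0.931 from edgeR). *Prlr* was 0.473 ± 0.463 CPM in lung and 0.662 ± 0.396 CPM in fat-pad lines (log2 fold change -0.51, standard error 0.69, adjusted p = 0.920 from edgeR). *Gata3* was 0.06 on the log2 scale over all 13 lines (standard error 0.11) and -0.12 over YEJH lines alone. *Sox9* was -0.08 over all 13 lines (standard error 0.23) and 0.11 over YEJH lines alone, and without YEJH-M3 repeat 2 these values were -0.21 and -0.05.

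For the genes below the filter the mean CPM over lines was compared with two-sided exact permutation tests, 10 in all over both sites and origins. *Foxa1* was 0.246 CPM in lung and 0.0716 CPM in fat-pad lines (exact permutation over all splits of the lines, p = 0.213). *Cited1* was 0.0690 and 0.0159 CPM (exact permutation p = 0.129) and *Elf5* 0.0285 and 0.0043 CPM (exact permutation p = 0.584). *Kit* and *Pgr* rested on 1 read each. The groups overlapped for all of these genes, and YEJH-M2 and YEJH-M3 gave 54 of the 72 *Foxa1* reads in lung lines.

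The other genes of the luminal programme gave no call between the sites either. None of the 7 hormone-sensing, 10 progenitor and alveolar, 6 prolactin signalling and milk, 15 steroid receptor and coregulator, 19 other lineage factor, 9 luminal epithelium and 7 basal genes tested passed. Their medians lay between -0.16 and 0.28 on the log2 scale, against 0.01 for all genes tested. Of the leukocyte, lung epithelium, endothelium, and fibroblast and fat lists, 3, 1, 0 and 3 genes were tested and none passed, with medians of 0.50, 0.56 and 1.42 for the leukocyte, lung, and fibroblast and fat genes.

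Parental origin was compared over 3 YEJG-derived and 10 YEJH-derived lines, with site as covariate. *Sox9* and *Prlr* were lower in YEJG-derived lines. The parental lines, not part of this comparison, did not differ in this way, with *Sox9* at 73.7 CPM in YEJG and 64.5 CPM in YEJH and *Prlr* at 0 reads in both. Each origin goes back to 1 parental line, so that the p-values measure the spread between lines and not between origins. Of the 4 members tested, 2 were called, both lower, where 40.8% of 15815 genes were called in either direction and 21.6% were lower. *Sox9* was 33.7 ± 8.93 CPM (SD, n = 3 lines) against 62.1 ± 12.3 CPM (n = 10 lines), which is -0.88 on the log2 scale (standard error 0.17, adjusted p = 0.0010 from edgeR). It was -0.80 in library set A, -0.86 in set B, which are the 2 prefixes of the library names, and -0.78 without YEJH-M3 repeat 2. *Prlr* was 0.0565 ± 0.0389 CPM against 0.711 ± 0.363 CPM, which is -3.60 on the log2 scale (standard error 0.73, adjusted p = 0.0017 from edgeR), and -2.98 and -4.24 in sets A and B. The YEJG-derived mean of *Prlr* rested on 7 reads in 125207031.

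For *Sox9* and *Prlr* the 3 YEJG-derived lines did not overlap with the 10 YEJH-derived lines, as held for 24.2% of all genes tested in that comparison. *Gata3* was 22.3 ± 4.63 CPM in YEJG-derived and 19.02 ± 1.92 CPM in YEJH-derived lines (log2 fold change 0.21, standard error 0.12, adjusted p = 0.202 from edgeR), and *Esr1* was 6.57 ± 0.894 and 5.89 ± 0.719 CPM (0.14, standard error 0.11, adjusted p = 0.358). *Gata3* was called when YEJG-FP was left out (0.43, adjusted p = 0.0057 from edgeR), and *Esr1* then changed sign to -0.04. Both origins overlapped in the levels of these genes.

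*Cited1* was at 0.129 CPM in YEJG-derived and 0.0190 CPM in YEJH-derived lines (exact permutation p = 0.0105, 1 of the 10 tests named above). The lines overlapped, since YEJG-FP had 0.0478 CPM and YEJH-M2 0.0665 CPM, and 17 reads against 8 carry the difference. *Foxa1* was 0.0278 CPM and 0.207 CPM (exact permutation p = 0.182), and *Elf5* had 0 and 9 reads (exact permutation p = 0.650). With no filter on low counts edgeR called both *Cited1* (log2 fold change 2.40, adjusted p = 0.0126) and *Foxa1* (-3.20, adjusted p = 0.0402). Without YEJG-FP edgeR also called *Foxa1* (-3.69, adjusted p = 0.0381). There *Foxa1* passed the filter only through YEJH-M2 and YEJH-M3, with every other line at or below 0.186 CPM. That call is therefore no support for a difference between origins.

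**Figure D4:**
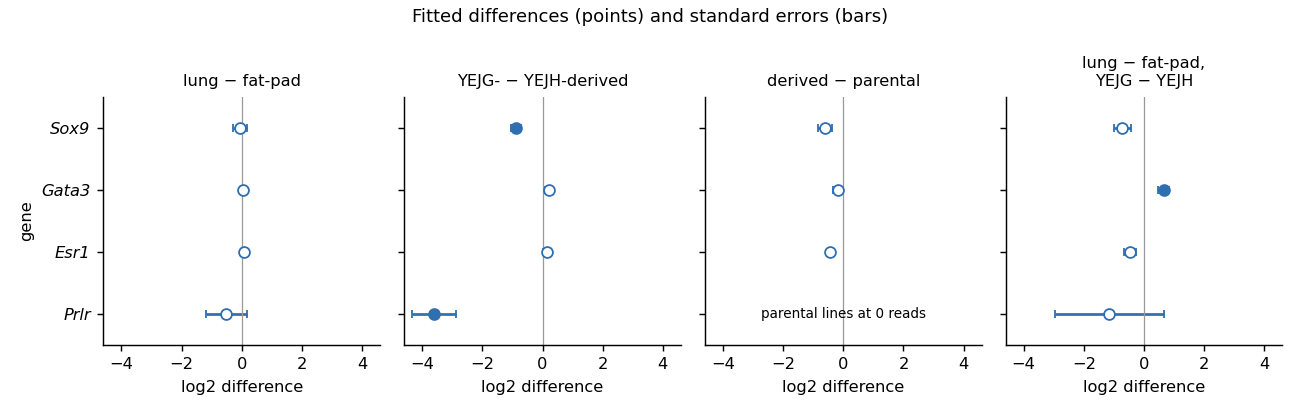
Log2 differences (points) with standard errors (bars) of the 4 genes tested in each of the 4 comparisons, with filled points for an adjusted p under 0.05 in edgeR's test. *Sox9* and *Prlr* were called between origins (-0.88 and -3.60) and *Gata3* in the difference between origins of the lung against fat-pad contrast (0.65); the *Prlr* fit against parental lines at 0 reads is not drawn.

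Genes of the luminal epithelium were lower in the same lines, where 21.6% of all genes tested were lower and 19.2% higher. All 9 luminal epithelium genes tested were lower (median log2 fold change -1.51, against 0.00 for all genes), among them *Epcam* (-1.51, standard error 0.19, adjusted p = 6.0e-05 from edgeR), *Krt18* (-0.93, adjusted p = 9.0e-05) and *Krt8* (-0.76, adjusted p = 0.00068). The list of 10 summed to 3739 to 6555 CPM in YEJG-derived lines (3739 to 3772 in YEJG lung lines) and 8115 to 11130 in YEJH-derived lines. In the parental lines it summed to 8589 to 9538 CPM. Parental YEJG held 3050, 1905 and 687 CPM of *Krt8*, *Krt18* and *Epcam*, against 2433, 1811 and 742 in parental YEJH. Of 10 progenitor and alveolar genes tested, 7 were lower and 0 higher (median -1.21), led by *Itga2*, the collagen-binding integrin of luminal progenitors (-2.84, standard error 0.21). Of 8 hormone-sensing genes tested, 5 were lower and 2 higher, with *Sec14l2* at -1.45 and *Wnt5a*, a secreted WNT ligand, at 5.16; *Wnt5a* was 17.2 CPM in YEJG-M1, 1.10 in YEJG-M2 and 0.119 in YEJG-FP.

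Most genes tested of the prolactin pathway were lower in YEJG-derived lines. Of 6 genes tested, 5 were lower and 1 higher (median log2 fold change -1.17), where 21.6% of all genes tested were lower and 19.2% higher. *Jak2*, the kinase bound to the prolactin receptor, was 25.8 CPM in YEJG-derived and 44.1 CPM in YEJH-derived lines (-0.81, standard error 0.12, adjusted p = 0.00018 from edgeR), and *Stat5a*, its transcription factor, was higher (0.44, standard error 0.09, adjusted p = 0.0014). The STAT5 target *Cish* fell by 2.57 on the log2 scale. The casein genes *Csn1s1* and *Csn2*, the whey protein gene *Wap* and the lactalbumin gene *Lalba* had no reads in any line.

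Of 15 steroid receptor and coregulator genes tested, 5 were higher and 4 lower (median -0.03), where 40.8% of all genes tested were called. *Stc2*, an oestrogen-responsive secreted glycoprotein gene, was higher (3.09, standard error 0.49) and *Nrip1*, a corepressor of nuclear receptors, lower (-0.74, standard error 0.12). Among 20 other lineage factors tested, 9 were lower and 4 higher, with *Sox4* lower (-0.77, standard error 0.08) and *Id2*, an inhibitor of helix-loop-helix factors, higher (2.11, standard error 0.21). Without YEJG-M1 the counts were 1 higher and 7 lower for the lineage factors and 3 higher and 2 lower for the steroid list.

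Markers of other cell types are given beside the 40.8% of all genes tested that were called. All 4 fibroblast and fat genes tested of 8 were higher in YEJG-derived lines, with *Col3a1* at 5.91, 2.02 and 0.536 CPM in YEJG-M1, YEJG-M2 and YEJG-FP and at 0.0468 CPM on average in YEJH-derived lines (adjusted p = 3.3e-05 from edgeR). The summed level of the list was 5.96 to 57.03 CPM in YEJG-derived and 2.59 to 6.07 CPM in YEJH-derived lines, of which *Pdgfra* gave 42.1 CPM in YEJG-M1, while *Lum* had no reads and *Adipoq* 1. Of 9 basal and myoepithelial genes, 3 were higher and 1 lower, with *Tagln* at 4.29 and *Egfr* at -0.83 on the log2 scale, and *Krt5* at 0.0632 and 0.0522 CPM. Of 3 leukocyte genes tested 1 was lower (*Csf1r*, -1.20), the 1 endothelial gene tested was lower (*Cdh5*, -3.88, at most 0.480 CPM in any line), and 0 of 1 lung gene was called. Without YEJG-M1, 3 of the 4 fibroblast and fat genes and 0 of 3 leukocyte genes were called. The part of these genes in the *Sox9* and *Prlr* differences was not tested.

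**Figure D5:**
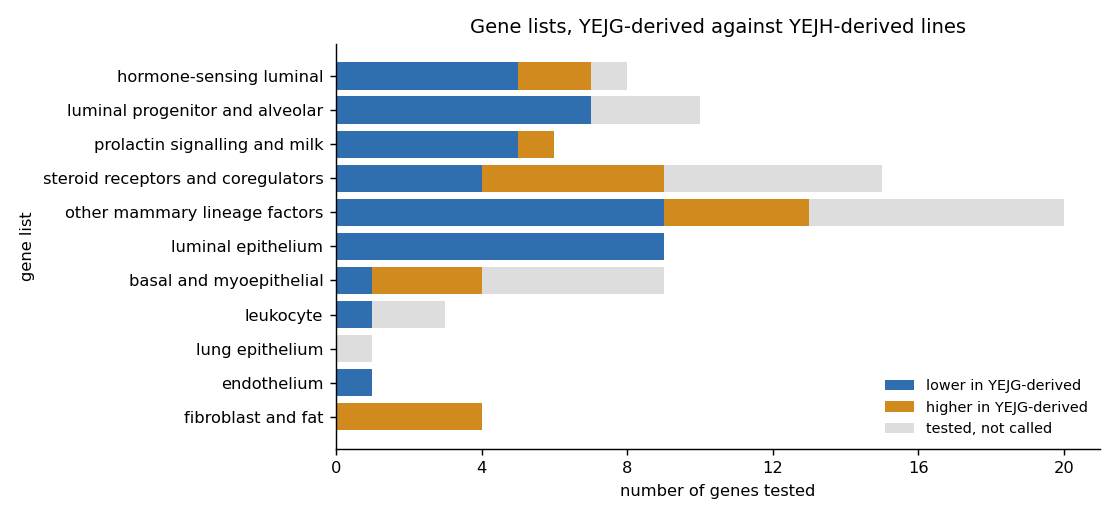
Number of genes tested in each of the 11 lists that were lower (blue), higher (orange) or not called (grey) in YEJG-derived against YEJH-derived lines (edgeR, adjusted p under 0.05). All 9 luminal epithelium genes were lower and all 4 fibroblast and fat genes were higher.

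Derived lines were compared with the parental lines, 13 against 2, with origin as covariate. *Prlr* was the member called, of 5 tested, where 7.77% of 16361 genes were called, 3.55% higher and 4.23% lower. Since both parental lines had 0 reads, the change is given against the floor of 3 counts in the parental line, without counting error in the derived lines. The YEJH-derived lines averaged 0.711 CPM, at least 9.76-fold higher than the floor of YEJH, whereas the interval of YEJH-M2 given above reached below that floor. No fold is given for the YEJG-derived lines, since YEJG-M1 and YEJG-M2 were under the floor of YEJG and the interval of YEJG-FP spanned it. The edgeR test gave an adjusted p of 0.0266, which became 0.0983 without parental YEJG, 0.410 without parental YEJH, 0.0591 in library set B, 0.0738 over YEJH lines alone and 0.153 with no origin covariate.

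*Esr1* was 8.17 ± 0.448 CPM in the 2 parental lines, and the fitted log2 fold change of derived lines was -0.43 (standard error 0.13, adjusted p = 0.0520 from edgeR), just outside the threshold. It was called with DESeq2 (adjusted p = 0.0227) and without YEJH-M3 repeat 2 (-0.43, adjusted p = 0.0484 from edgeR). It was not called without parental YEJH (-0.27, adjusted p = 0.394 from edgeR) or without parental YEJG (-0.54, adjusted p = 0.199). Nor was it called in library set A (adjusted p = 0.1455 from edgeR), in set B (adjusted p = 0.139) or over YEJH lines alone (adjusted p = 0.0950). *Sox9* was 69.1 ± 6.49 CPM in parental lines (-0.61, standard error 0.22, adjusted p = 0.110 from edgeR), with -1.14 (adjusted p = 0.0111) when parental YEJH was left out and -0.06 over YEJH lines alone. Without YEJH-M3 repeat 2 *Sox9* was called (-0.64, adjusted p = 0.0366 from edgeR). *Gata3* (-0.19, adjusted p = 0.498 from edgeR) and *Foxa1* (1.47, standard error 1.56, adjusted p = 0.636) were not called.

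*Esr2*, the gene of oestrogen receptor beta, was higher in derived lines. It lay at 0.0271 and 0.0601 CPM in parental YEJG and YEJH, below the floors of 3 counts in these lines (0.0779 and 0.0729 CPM). *Esr2* averaged 1.14 CPM in YEJG-derived and 0.933 CPM in YEJH-derived lines (adjusted p = 0.00083 from edgeR). In the steroid list 3 genes were higher and 1 lower of 15, the lower one being *Myb* (-1.45, standard error 0.26). Of 20 other lineage factors 1 was higher and 4 lower, with *Tfap2c*, a partner of the oestrogen receptor in luminal cells, at 0.0602 CPM in parental, 0.500 CPM in YEJG-derived and 5.01 CPM in YEJH-derived lines (adjusted p = 0.0107 from edgeR) and *Sox4* at -0.63.

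Among the other lists, 1 of 11 progenitor and alveolar genes was higher (*Lcn2*, lipocalin 2, 2.37) and 2 were lower (*Cd55* leading, -2.73). Of 9 luminal epithelium genes 2 were lower (*Epcam*, -0.98), of 11 basal genes 1 was lower (*Krt14*, -1.75), and of 4 fibroblast and fat genes 2 were higher, with *Col1a2* at 3.13. None of 8 hormone-sensing, 6 prolactin, 3 leukocyte, 2 lung and 1 endothelial genes passed. These counts rest on 2 parental lines: of all genes, 141 were called without parental YEJG and 2281 without parental YEJH, against 1272 with both. Without parental YEJG the lists held 2 calls, 1 progenitor and alveolar gene and 1 steroid receptor gene, both higher, and without parental YEJH 6 of 9 luminal epithelium genes were lower and 3 of 4 fibroblast and fat genes higher.

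The lung against fat-pad contrast was compared between origins over the 13 derived lines, with 1 YEJG fat-pad line. *Gata3* was the member called, of 4 tested, where 15.5% of 15056 genes were called. It was 17.3 CPM in YEJG-FP and 24.9 ± 2.08 CPM (n = 2 lines) in YEJG lung lines, and 19.7 ± 1.23 CPM (n = 5 lines) and 18.4 ± 2.40 CPM (n = 5 lines) in YEJH fat-pad and lung lines. The difference was 0.65 on the log2 scale (standard error 0.18, adjusted p = 0.0327 from edgeR), 0.73 in library set A and 0.50 in set B (adjusted p = 0.0194 and 0.199). It lost the threshold without YEJG-M1 (0.57, adjusted p = 0.107 from edgeR), without any 1 of YEJH-FP1, YEJH-FP2, YEJH-FP3 and YEJH-FP5 (0.63 to 0.65, adjusted p = 0.0511 to 0.0584), and without replicate 3 (0.61, adjusted p = 0.0770).

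*Sox9* was 43.8 CPM in YEJG-FP and 28.6 ± 2.30 CPM in YEJG lung lines, against 59.3 ± 2.79 and 64.9 ± 17.6 CPM in YEJH fat-pad and lung lines (-0.72, standard error 0.27, adjusted p = 0.0964 from edgeR). Without YEJH-M3 repeat 2 it was called at -0.57 (adjusted p = 0.0040 from edgeR). *Esr1* (-0.48, standard error 0.20, adjusted p = 0.136) and *Prlr* (-1.15, standard error 1.82, adjusted p = 0.720) were not called, the latter on 7 reads in YEJG-derived lines.

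In the same contrast, 5 of 15 steroid receptor and coregulator genes were higher and 0 lower, with *Xbp1* at 0.68 (standard error 0.15; 3 higher and 1 lower without YEJG-M1), and of 19 other lineage factors 1 was higher (*Id2*, 1.39) and 3 lower (*Grhl2*, a factor that maintains epithelial junctions, -1.75). Of 9 luminal epithelium genes 5 were lower (*Krt19*, -2.29) and 1 higher (*Cldn7*, 2.21), and of 6 prolactin genes 3 were lower (*Cish*, -3.56) and 1 higher (*Jak2*, 0.61). Of 7 hormone-sensing genes 1 was lower (*Areg*, -0.86, standard error 0.10) and of 10 progenitor and alveolar genes 2 were lower (*Cd55*, -2.76). Of 7 basal genes 1 was higher (*Mylk*, 3.26) and 2 lower (*Egfr*, -1.29), and of 3 fibroblast and fat genes 1 was higher (*Pdgfra*, 3.17), while 3 leukocyte and 1 lung gene were not called. *Pdgfra*, at 3.07 CPM in YEJG-FP against 42.1 and 8.99 in YEJG-M1 and YEJG-M2, moved with *Gata3*, and its part in that difference was not tested.

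The genes whose levels ran most like each member over the 15 lines are given as a description, from Pearson's r of log2(CPM + 1) over genes that passed the filter. *Sox9* was most alike *Slc25a48* (r = 0.956) and *Diaph1* (0.948), and *Prlr* most alike *Erich2* (0.922) and *Myo5c* (0.889). *Gata3* was most alike *Pacs2* (0.908) and *Anapc5* (0.880), and *Esr1* most alike *Vps33b* (0.856) and *Rhno1* (0.834). The 15 points share their origin in 2 parental lines, and without YEJH-M3 repeat 2 these values lay between 0.784 and 0.956.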

How the data were processed

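RNA-seq was performed on polyA RNA of cultured cells in 45 libraries of 15 lines, prepared with the TruSeq v2 kit and sequenced on a NextSeq500. Raw counts for each gene were deposited by the authors, and the submitters' processing notes name FastQC, HISAT2, SAMtools 1.2 and HTSeq. The notes give a human build for these mouse lines, while all gene identifiers are of mouse. The annotation release and counting strand are not given in the sources used here. Between 31.6% and 43.3% of the reads of a library fell in the 5 unassigned classes and were left out of library sizes. The class for low alignment quality held 822828 to 1372504 reads in the 22 libraries of set A and 0 in the 23 of set B. Of 54838 identifiers, 50764 matched the GRCm39 annotation, used for names, positions and exon lengths, and 0 columns were unused.

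Counts of the 3 repeats were summed per line and tested with edgeR 4.0.16 (R 4.3.3), filterByExpr, TMM and the quasi-likelihood test, with Benjamini-Hochberg adjustment over all genes tested and a threshold of 0.05. Standard errors are the log2 fold change divided by the square root of F. Levels are TMM-scaled CPM averaged over repeats. Genes below the filter were compared with exact permutation tests over lines (Python 3.11.15). Repeats are technical. The study describes independent lines taken from separate mice, but the sources used here do not tie each line to a mouse, so that a fat-pad and a lung line may share one, and p-values measure the spread between lines. The test was run on simulated data first. Alternatives used DESeq2 1.42.0, limma 3.58.1, other scalings and filters, and omitted libraries and lines. The library YEJH-M3 repeat 2 was left out as an alternative chosen after seeing the data, as were the alternatives for levels of genes below the filter. The members and the 11 gene lists were chosen with earlier results of these data known. Genes named were the 9 members, from each list the called gene with the smallest p in each direction, fixed epithelial markers, and the 2 genes most alike each member; *Greb1*, the milk genes, the defining markers of other cell types, and *Areg*, *Cish* and *Pdgfra* outside the comparison that named them, were taken from the lists after their values were seen. Promoters are from RefSeq (GRCm38.p6) and were not compared with GRCm39 positions.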

Additional observations from a re-analysis of the deposited data

Results flagged for a closer look

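In 11 combinations of a member and 5 YEJH lines of 1 site with more than 3 reads in a line, a line far from the others was looked for. For normally distributed values chance flags about 1 in 20, which need not hold for low counts. *Sox9* in YEJH-M3 (95.8 CPM) lay apart from the next lung line (61.7 CPM), with a gap of 0.778 of the range, over the critical value of 0.71. The value came from repeat 2 of that line. *Elf5* in YEJH-M1 (0.173 CPM, 7 reads) lay apart from the next lung line (0.0261 CPM, 1 read), with a gap of 0.850 of the range. *Elf5* was looked at in lung lines only because of the 7 reads of YEJH-M1. Its gap follows from that choice and is no support for a difference.

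The lung against fat-pad contrast of *Gata3* differed between origins by 0.65 on the log2 scale in the interaction test of edgeR (adjusted p = 0.0327). The YEJG side of this contrast has 1 fat-pad line.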

How the results depend on the processing

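The count of members called between sites stayed at 0 under all alternatives run. Between origins it was 2, and rose to 4 with no filter on low counts and with YEJG-FP left out, and to 3 with libraries kept apart in limma and over lung lines only, *Gata3* being added (range over omitted lines and repeats 2 to 4). With YEJG-FP left out the 4 include *Foxa1*, which passed the filter there only through YEJH-M2 and YEJH-M3. Against parental lines it was 1, and became 2 with DESeq2, 3 with libraries kept apart in limma, 3 without YEJH-M3 repeat 2, and 0 in library set B, over YEJH lines only and with no origin covariate (0 to 2 over omitted lines and repeats, with 0 without parental YEJG and 2 without YEJG-FP, YEJH-M3 or YEJH-M5). In the difference between origins it was 1, and became 0 in library set B and 2 without YEJH-M3 repeat 2 (0 to 2 over omitted lines and repeats, with 2 without YEJH-M3 or replicate 2). With the technical repeat number as replicate block in limma these counts were 0, 2, 3 and 1. Repeat numbers were not shown to pair libraries (mean r of deviations 0.0284 for the same and -0.0172 for other numbers, or 0.159 and -0.0793 with library set means removed, with the lowest pair at -0.271), nor did line numbers pair YEJH lines (-0.0450), and with line number as block the site changes of *Gata3* and *Sox9* were -0.12 and 0.0789.

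Signs turned in these cases, none of them called. Between sites *Gata3* was -0.0163 in library set B, -0.12 over YEJH lines (-0.1571 also without YEJH-M3 repeat 2), -0.0184 to 0.118 over omitted lines and repeats, with *Sox9* at 0.0148, 0.107 and -0.2529 to 0.0455. Between origins *Esr1* was -0.0413 over lung lines and -0.0431 (without YEJG-FP) to 0.2219 over omitted lines and repeats. Against parental lines *Gata3* and *Foxa1* were 0.15 and -0.17 without parental YEJH and -0.44 and 1.99 without parental YEJG, the ends of their ranges. The cause was not tested. The numbers of parental lines (2) and of YEJG fat-pad lines (1) limit precision throughout, and few reads also limit it for *Foxa1*, *Cited1*, *Elf5*, *Kit* and *Pgr*.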
